A study of Mus musculus with 18 samples.

Results

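The genes described here make, bind and respond to prostaglandins and leukotrienes. They were the 9 rows of the deposited table, of 20615 genes in all, that carry the names *Pla2g4a*, *Ptgs1*, *Ptgs2*, *Ptges*, *Ptger2*, *Ptger4*, *Alox5*, *Alox5ap* and *Ltc4s*, and the list of names was drawn up with earlier results of these data known. RNA-seq was performed on bone marrow-derived macrophages (BMDMs) in 18 samples, 3 in each of 6 groups. The cells came from C57BL/6 (B6) mice or from C57BL/6.NOD-*Aec1Aec2* (SjSS) mice, a model of susceptibility to Sjögren's syndrome in which the *Idd3* and *Idd5* intervals of the non-obese diabetic mouse were bred onto the B6 background. BMDMs of each strain, grown for 7 days with the M-CSF of L929 cell supernatant from marrow of female mice aged 7 to 12 weeks, formed an untreated control group, an AC group that received apoptotic cells, and a CpG group that received an oligonucleotide which activates TLR9. The ACs were thymocytes killed with 2 µM dexamethasone and added at 5 per BMDM for 2 h. The AC samples were then washed and kept for 3 h more by the labels, or 4 h by the methods, while exposure to 1 µM CpG lasted 6 h by the labels. Whether the wash and the added hours also applied to the CpG samples is not clear from the methods. The strain of the thymocytes given to each sample was not stated for the RNA-seq, and neither were the hours the untreated cells spent in the well. The study names 3 mice of each strain, and which samples share a mouse was not stated, so the p-values measure the spread between these samples.

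Cytosolic phospholipase A2 (*Pla2g4a*) frees arachidonic acid from membranes. The cyclooxygenases COX-1 (*Ptgs1*, present in resting cells) and COX-2 (*Ptgs2*, induced by inflammatory signals) turn it into prostaglandin H2, and microsomal prostaglandin E synthase 1 (*Ptges*) turns that into prostaglandin E2, which macrophages sense through the receptors EP2 (*Ptger2*) and EP4 (*Ptger4*). In the other branch, 5-lipoxygenase (*Alox5*) with its helper protein FLAP (*Alox5ap*) makes leukotriene A4, from which leukotriene C4 synthase (*Ltc4s*) makes the first of the cysteinyl leukotrienes.

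Levels are given as CPM, edgeR's measure of a gene's counts relative to the sample's total after TMM scaling, and differences as log2 fold changes from edgeR's quasi-likelihood test, with the standard error (SE) and a p adjusted over all 15789 genes tested. A gene is said to have risen or fallen at an adjusted p under 0.05, and to have been called where the log2 fold change was also over 1.3 in size, the thresholds of the study's methods. All 9 genes passed the filter on low counts. Totals ran from 30688336 to 57139662 counts per sample. The 8 macrophage markers together ran from 15110 to 23750 CPM over all samples. The markers of other cells summed to less than those of macrophages, at most 112.2 CPM in a sample. The 13 T-lineage markers summed to 13.8 to 18.4 CPM in AC treated SjSS BMDMs and 4.63 to 11.8 in the other samples, most of it *Cd4*. This sum follows *Cd4*, at a mean of 8.60 CPM in control B6 and 3.57 with ACs, and not each marker. *Rag1* had 7, 9 and 8 counts in AC treated B6, 1 in each AC treated SjSS sample and 0 elsewhere. Over the 3 T-lineage markers tested, the median log2 fold change with ACs was 1.02 in B6 and 1.18 in SjSS. The 4 of 10 mast cell and basophil markers in the table summed to 5.92 to 6.89 CPM in AC treated SjSS BMDMs and 0.73 to 1.78 elsewhere, with *Hdc* alone at 4.47 to 5.05 CPM in the former. Neutrophil markers, 5 of 9 in the table, summed to 11.3 to 13.1 CPM in CpG treated B6, 5.63 to 6.01 in CpG treated SjSS and 2.47 to 5.26 in the other samples. Most of this was *S100a8*. The 4 fibroblast markers summed to 71.9 to 112.2 CPM in SjSS samples and 19.6 to 65.1 in B6 samples, most of it *Col1a1*. *Col3a1* overlapped between the strains, at 6.91 to 12.9 CPM in SjSS and 3.33 to 16.8 in B6. Dendritic cell, eosinophil and B cell markers summed to no more than 3.48, 3.33 and 0.816 CPM. The part of these cells in the results that follow was not tested, and in bulk RNA fewer cells of a type cannot be told apart from less RNA per cell.

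The promoters of the 4 enzymes whose levels moved most are shown so that their letters can be read beside the values, 250 bases before to 50 after the RefSeq start (GRCm38.p6). In them *Ptgs2* and *Ptges*, which rose under both stimuli, can be set against *Ptgs1* and *Alox5*, which fell. Capitals mark matches on either strand to the motifs searched. They were the C/EBP motif TTGCNNAA, the cyclic AMP response element core ACGTCA, the E-box CACGTG, the GC box GGGCGG, the TATA box TATAAA, and by name the NF-kB family motif and the interferon-stimulated response element.
Ptgs2 promoter, chr1:150099781-150100080, plus strand: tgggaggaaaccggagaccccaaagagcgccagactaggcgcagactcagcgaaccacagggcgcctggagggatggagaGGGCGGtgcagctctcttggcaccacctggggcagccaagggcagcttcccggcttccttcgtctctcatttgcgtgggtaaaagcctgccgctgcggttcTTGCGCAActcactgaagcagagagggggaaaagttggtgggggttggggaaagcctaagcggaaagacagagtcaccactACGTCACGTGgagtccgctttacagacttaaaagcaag
Ptges promoter, chr2:30903248-30903547, minus strand: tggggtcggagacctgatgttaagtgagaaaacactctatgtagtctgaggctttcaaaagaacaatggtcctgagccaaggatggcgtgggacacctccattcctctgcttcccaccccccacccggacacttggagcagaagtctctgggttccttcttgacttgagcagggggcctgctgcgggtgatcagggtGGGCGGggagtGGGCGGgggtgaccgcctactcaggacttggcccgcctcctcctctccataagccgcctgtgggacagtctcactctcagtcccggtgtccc
Ptgs1 promoter, chr2:36230176-36230475, plus strand: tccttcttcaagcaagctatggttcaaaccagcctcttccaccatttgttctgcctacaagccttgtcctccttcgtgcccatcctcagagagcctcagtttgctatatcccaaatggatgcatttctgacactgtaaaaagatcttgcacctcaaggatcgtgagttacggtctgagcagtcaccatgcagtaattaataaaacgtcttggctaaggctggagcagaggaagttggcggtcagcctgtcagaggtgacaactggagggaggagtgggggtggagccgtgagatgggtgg
Alox5 promoter, chr6:116461129-116461428, minus strand: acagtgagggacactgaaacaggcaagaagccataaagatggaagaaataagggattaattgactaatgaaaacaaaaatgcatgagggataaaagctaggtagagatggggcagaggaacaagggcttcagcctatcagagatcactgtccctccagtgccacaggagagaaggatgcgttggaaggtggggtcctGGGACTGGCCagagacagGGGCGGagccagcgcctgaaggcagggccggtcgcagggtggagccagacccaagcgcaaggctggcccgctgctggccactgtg
With the start base as 0, the *Ptgs2* window held TTGCGCAA from -69 to -62, GGGCGG from -170 to -165, and ACGTCA from 12 to 17, whose last letters were also the first of CACGTG from 16 to 21. Of 32851 promoters of this length, 10.8% held a C/EBP match, 7.51% the cyclic AMP core, 7.15% the E-box and 35.7% a GC box. The *Ptges* window held GC boxes from -53 to -48 and from -42 to -37, and that of *Alox5* a GC box from -35 to -30 and an NF-kB family match, GGGACTGGCC, from -53 to -44, a motif found in 20.7% of promoters. No motif of the list was found in the *Ptgs1* window. These matches are letters, not tested sites. The RefSeq start of *Ptges* lies inside the gene's span in the table, which begins at the base 30929863, so the window shown is not that of the table's longest model.

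In genome mm10 as used by the authors, *Ptgs2* (chr1:150100031-150108227, plus strand) and *Pla2g4a* (chr1:149829618-149961290, minus strand) were neighbours, 138740 bases apart. The *Idd5* interval is on the same chromosome, and whether these genes lie in non-obese diabetic DNA, or whether reads of that strain map to them as well as reads of B6, was not tested. *Ptges* (chr2:30889471-30929863, minus) and *Ptgs1* (chr2:36230426-36252272, plus) share chromosome 2. *Alox5* lies at chr6:116410077-116461178 on the minus strand, *Alox5ap* at chr5:149264767-149288153 on the plus strand, *Ltc4s* at chr11:50236469-50238616 on the minus strand, *Ptger2* at chr14:44988195-45003820 on the plus strand and *Ptger4* at chr15:5206661-5244187 on the minus strand. All values are for whole genes. *Ptger4* overlaps *Ttc33* on the opposite strand, which averaged 27.6 CPM over the 18 samples, and since the counting was not stated to use strand, reads of their overlap are uncertain for both. Other overlapping genes in the table averaged at most 1.29 CPM.

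**Figure D1:**
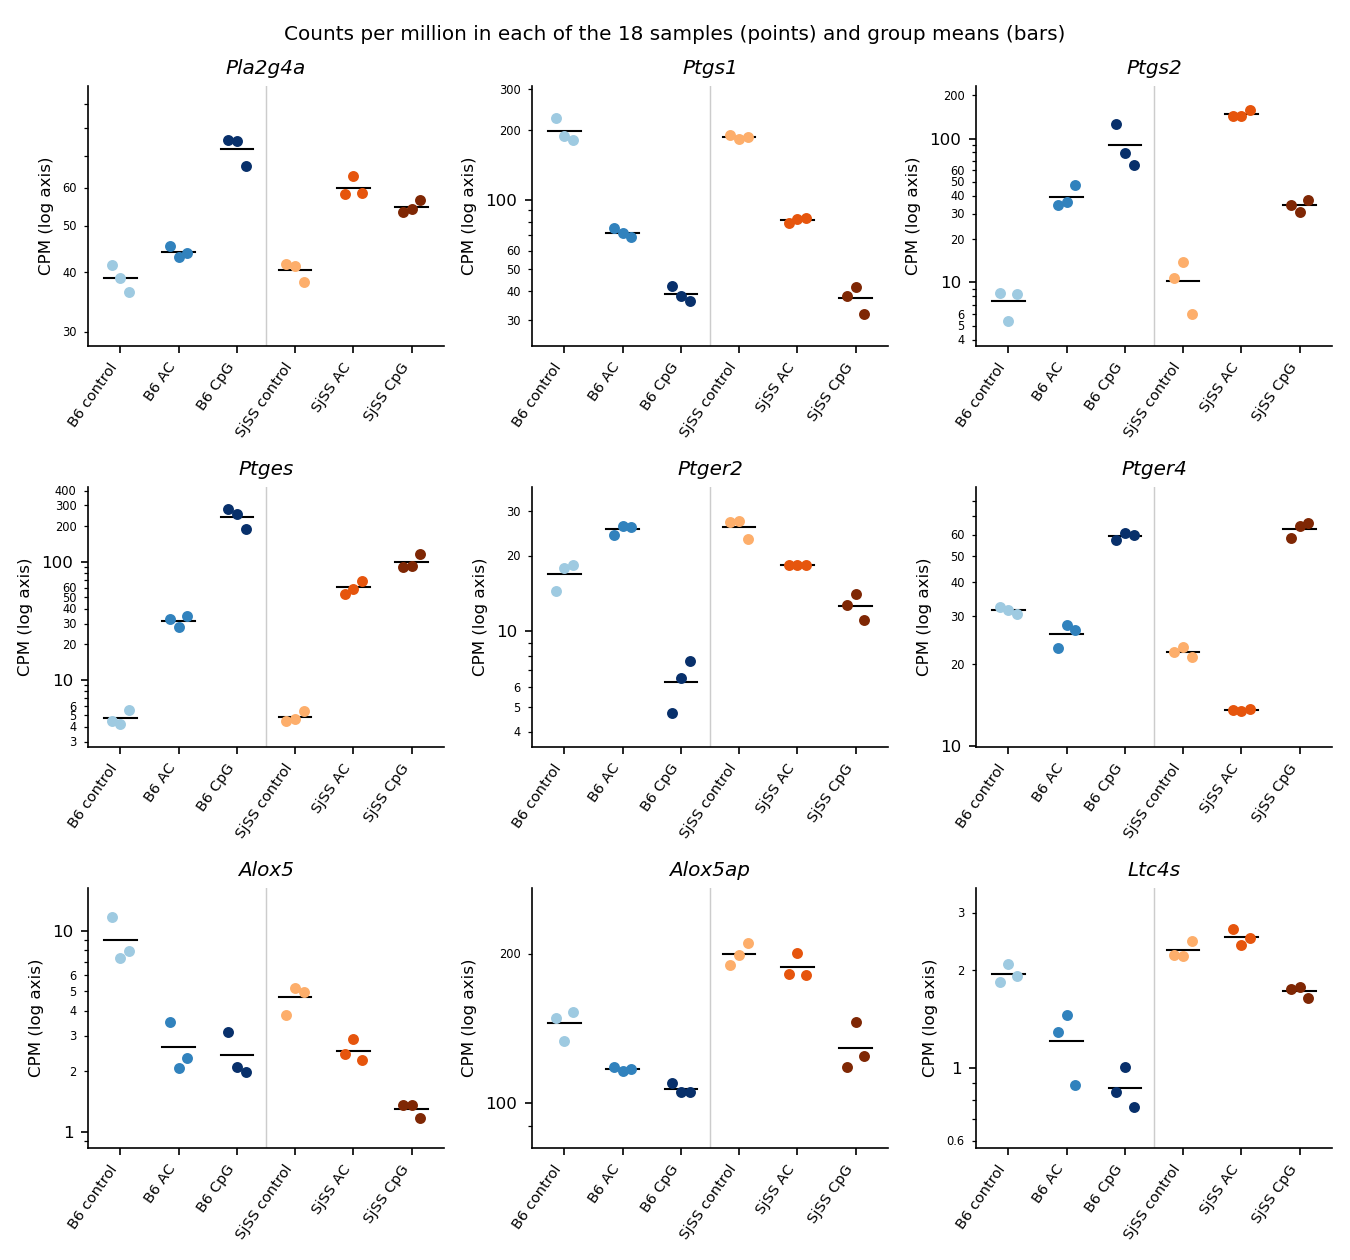
CPM of the 9 genes in each sample on log axes with a scale for each gene, points for the 3 samples of a group and bars for their mean, with B6 groups in blue and SjSS groups in orange to brown. *Ptgs2* was highest in AC treated SjSS BMDMs (143 to 157 CPM) and CpG treated B6 BMDMs (66.0 to 125.3 CPM), while *Ptgs1* and *Alox5* were lower than in controls under both stimuli in both strains.

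Untreated BMDMs of both strains held much *Ptgs1* and little *Ptgs2* or *Ptges*. Levels of different genes were compared per kilobase of merged exons. In control B6 BMDMs *Alox5ap* was highest at 102.0 ± 7.09 CPM per kb (SD, n = 3), followed by *Ptgs1* at 50.9 ± 6.19, *Pla2g4a* at 6.08 ± 0.388, *Ptger4* at 4.75 ± 0.137 and *Ptger2* at 3.25 ± 0.408. *Alox5* (2.18 ± 0.570), *Ltc4s* (1.92 ± 0.123), *Ptgs2* (1.62 ± 0.383) and *Ptges* (1.21 ± 0.185) came last, and each of these neighbours lay within the summed SDs of the next. In control SjSS BMDMs *Alox5ap* was at 140.7 ± 6.94 and *Ptgs1* at 48.1 ± 0.855 CPM per kb, and *Ptges* at 1.24 ± 0.122 and *Alox5* at 1.13 ± 0.179 were lowest, with SDs that overlapped.

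Between untreated BMDMs of the strains, 0 of the 9 genes were called, against 2.01% of all genes tested. At an adjusted p under 0.05 alone 4 of 9 differed, against 19.6% of all genes, and DESeq2 also called none by the full rule. *Alox5ap* was higher in SjSS by a log2 fold change of 0.46 (SE 0.07, adjusted p = 0.000128) and *Ptger2* by 0.62 (SE 0.12, adjusted p = 0.00154). *Alox5* was lower by -0.95 (SE 0.21, adjusted p = 0.00317) and *Ptger4* by -0.51 (SE 0.07, adjusted p = 3.76e-05). The log2 difference was -0.08 for *Ptgs1* (SE 0.09, adjusted p = 0.542), 0.43 for *Ptgs2* (SE 0.27, adjusted p = 0.283), 0.03 for *Ptges* (SE 0.18, adjusted p = 0.931) and, for *Pla2g4a*, 0.05 (SE 0.06, adjusted p = 0.609). For these 4 the samples of the strains overlapped.

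Both stimuli raised *Ptgs2* and *Ptges* and lowered *Ptgs1* and *Alox5* in both strains. With ACs 4 of the 9 genes were called in B6 BMDMs, against 4.47% of all genes tested. They were *Ptgs2* and *Ptges*, which rose, and *Ptgs1* and *Alox5*, which fell. In SjSS BMDMs ACs gave 2 calls, *Ptgs2* and *Ptges*, against 12.9% of all genes. *Ptgs1* and *Alox5* fell there as well but by log2 fold changes under 1.3 in size. CpG gave 5 calls in each strain, against 12.7% of all genes in B6 and 9.26% in SjSS. *Ptgs2*, *Ptges*, *Ptgs1* and *Alox5* were called in both, *Ptger2* fell in B6 and *Ptger4* rose in SjSS. Without CpG treated B6 replicate 1 there were 4 calls in B6, as *Ptger2* was then at -1.25. By the adjusted p alone, 9, 7, 9 and 9 of the genes moved with ACs in B6, ACs in SjSS, CpG in B6 and CpG in SjSS, against 38.3%, 58.0%, 57.9% and 54.2% of all genes. The median log2 fold change over the 9 genes was -0.29, -0.08, -0.44 and -0.42 in these comparisons, against 0.00, -0.02, -0.04 and -0.01 over all genes. Within a strain the AC and CpG comparisons share their control samples.

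**Figure D2:**
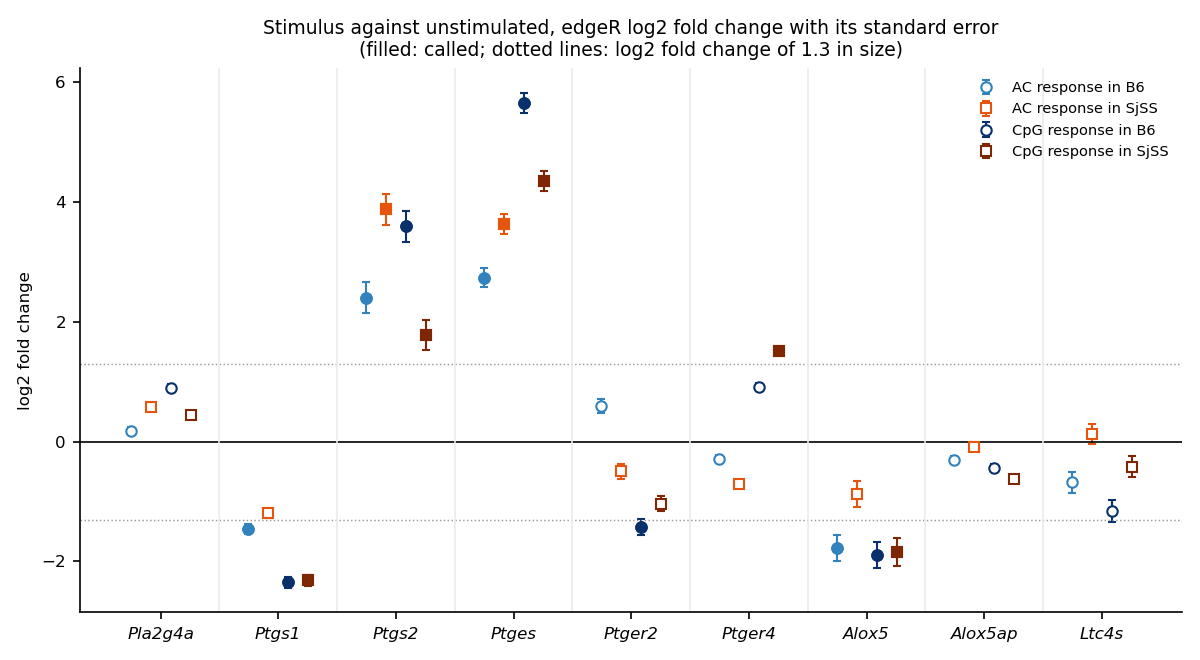
Log2 fold changes against untreated BMDMs of the same strain with their SE (edgeR, n = 3 samples a group) for the 9 genes, circles for B6 and squares for SjSS. Filled symbols passed both thresholds, and the dotted lines mark 1.3 in size. *Ptgs2* and *Ptges* lie above the upper line in all 4 comparisons, and *Ptgs1* lies below the lower line in all but the AC response of SjSS BMDMs (-1.19).

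*Ptgs2*, the inducible cyclooxygenase, was raised most by ACs in SjSS and most by CpG in B6. In control B6 BMDMs it was at 8.45, 5.38 and 8.38 CPM, in AC treated B6 at 34.3, 36.5 and 47.9 CPM, and in CpG treated B6 at 125.3, 78.8 and 66.0 CPM. Control SjSS BMDMs had 10.7, 13.9 and 6.02 CPM, AC treated SjSS 143.4, 143.3 and 156.6 CPM, and CpG treated SjSS 34.6, 30.98 and 37.4 CPM. No stimulated sample overlapped the controls of its strain, AC treated samples lay below CpG treated ones in B6 and above them in SjSS, and CpG treated B6 replicate 1 stood above the other 2 of its group. ACs raised it 5.30-fold in B6 (log2 fold change 2.41, SE 0.25, adjusted p = 4.53e-07) and 14.7-fold in SjSS (3.88, SE 0.26, adjusted p = 1.81e-10). CpG raised it 12.1-fold in B6 (3.59, SE 0.26, adjusted p = 5.83e-10) and 3.42-fold in SjSS (1.77, SE 0.25, adjusted p = 6.78e-06).

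The strain differences of *Ptgs2* had opposite signs under the 2 stimuli. With ACs it was higher in SjSS than in B6 by 1.90 on the log2 scale (SE 0.23, adjusted p = 1.56e-06), and with CpG it was lower by -1.39 (SE 0.23, adjusted p = 0.000269). As interactions of strain and stimulus, the AC response differed by 1.47 (SE 0.35, adjusted p = 0.00254) and the CpG response by -1.82 (SE 0.35, adjusted p = 0.00417). Single libraries decided the fold threshold for some of these. Without CpG treated B6 replicate 1 the strain difference of *Ptgs2* with CpG was -1.07 (adjusted p = 0.00185), and without control SjSS replicate 3 the AC interaction was 1.19 (adjusted p = 0.0063), so that neither was then called though both stayed under 0.05.

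*Ptgs1*, the constitutive cyclooxygenase, fell with both stimuli in both strains, further with CpG. Its levels were 225.3, 188.0 and 180.4 CPM in control B6, 75.3, 71.7 and 68.7 CPM with ACs, and 42.2, 38.2 and 36.3 CPM with CpG. In SjSS they were 189.6, 183.1 and 187.4 CPM in controls, 78.9, 82.5 and 83.5 CPM with ACs, and 38.4, 42.0 and 32.1 CPM with CpG. The 3 conditions did not overlap in either strain, while control and CpG treated samples of the strains did. ACs gave -1.46 in B6 (SE 0.09, adjusted p = 2.87e-10) and -1.19 in SjSS (SE 0.09, adjusted p = 7.06e-10), and CpG gave -2.35 (SE 0.09, adjusted p = 9.88e-14) and -2.32 (SE 0.09, adjusted p = 1.70e-13). Between the strains *Ptgs1* differed by 0.18 with ACs (SE 0.09, adjusted p = 0.0909) and -0.05 with CpG (SE 0.09, adjusted p = 0.731). The responses of the strains differed by 0.27 for ACs (SE 0.12, adjusted p = 0.0962) and 0.03 for CpG (SE 0.12, adjusted p = 0.93). The AC interaction of *Ptgs1* passed 0.05 with the replicate number as a block (0.26, adjusted p = 0.0402), in a fit of the compared groups alone (0.28, adjusted p = 0.0401) and without control B6 replicate 3 (0.33, adjusted p = 0.0476).

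Set against each other per kilobase, the transcripts of the cyclooxygenases changed order. This ratio, and the share of *Ptges* given further on, were chosen after the values had been seen and have no test. The ratio of *Ptgs2* to *Ptgs1* was 0.0318 ± 0.00756 (SD, n = 3) in control B6, 0.470 ± 0.107 with ACs and 1.94 ± 0.513 with CpG. In SjSS it was 0.0466 ± 0.0187 in controls, 1.53 ± 0.059 with ACs and 0.793 ± 0.183 with CpG. All 3 AC treated SjSS samples (1.47 to 1.59) and all 3 CpG treated B6 samples (1.54 to 2.52) held more *Ptgs2* than *Ptgs1* per kilobase, and the other 12 samples held less.

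**Figure D3:**
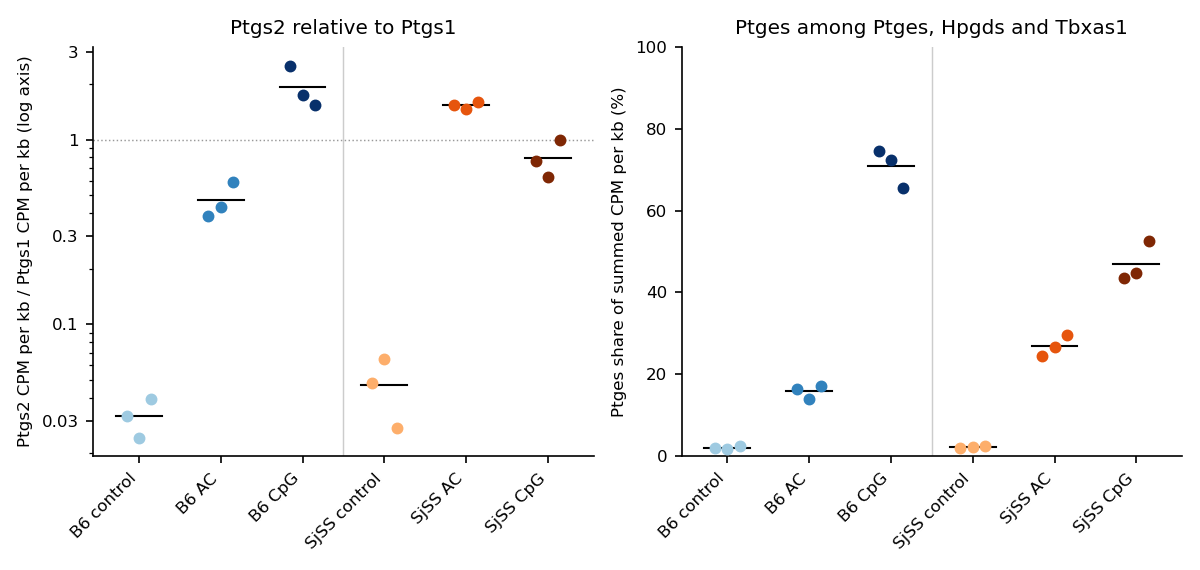
Left, ratio of *Ptgs2* to *Ptgs1* in CPM per kb on a log axis, and right, *Ptges* as a percent of the summed CPM per kb of *Ptges*, *Hpgds* and *Tbxas1*, with points for samples and bars for the mean of 3. The ratio passes 1 (dotted line) in AC treated SjSS (1.47 to 1.59) and CpG treated B6 BMDMs (1.54 to 2.52). The share of *Ptges* among these 3 synthases rises from 1.79 to 2.54% in controls to 65.4 to 74.7% in CpG treated B6. *Ptges2*, *Ptges3* and *Fam213b* are not in the sum.

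*Ptges*, the synthase that acts with COX-2 in making prostaglandin E2, rose more than any other of the 9 genes under CpG. Its levels were 4.50, 4.19 and 5.58 CPM in control B6, 32.4, 28.1 and 34.9 CPM with ACs, and 278.3, 253.7 and 188.7 CPM with CpG. In SjSS they were 4.49, 4.67 and 5.40 CPM in controls, 53.0, 59.3 and 69.4 CPM with ACs, and 89.9, 92.8 and 117.2 CPM with CpG. Controls of the strains overlapped, whereas under each stimulus all samples of 1 strain lay above those of the other, SjSS with ACs and B6 with CpG. The rise with ACs was 6.66-fold in B6 (2.74, SE 0.16, adjusted p = 2.02e-10) and 12.4-fold in SjSS (3.64, SE 0.16, adjusted p = 5.17e-13), and with CpG 50.4-fold (5.65, SE 0.17, adjusted p = 3.79e-15) and 20.5-fold (4.36, SE 0.17, adjusted p = 1.05e-13). The AC response was larger in SjSS by 0.90 on the log2 scale (SE 0.23, adjusted p = 0.00406). The CpG response was smaller there by -1.297 (SE 0.22, adjusted p = 0.00199), just under the fold threshold in size.

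Among the other enzymes that use prostaglandin H2 are *Hpgds*, which makes prostaglandin D2, and *Tbxas1*, which makes thromboxane. *Ptges* made up 2.09% ± 0.397 of the summed level per kilobase of the 3 synthases in control B6, 15.9% ± 1.60 with ACs and 70.8% ± 4.80 with CpG. In SjSS its share was 2.19% ± 0.273, 26.9% ± 2.62 and 47.0% ± 4.83. The synthases *Ptges2*, *Ptges3* and *Fam213b* were left out of this sum, and with them the share would be lower. In B6 these went from 2.36, 26.9 and 37.8 CPM per kb in controls to 3.14, 38.2 and 60.1 with CpG. In SjSS they went from 2.335, 20.6 and 27.5 to 2.446, 37.9 and 47.2 CPM per kb. *Hpgds* fell with CpG from 216.5 ± 12.4 to 81.4 ± 3.40 CPM in B6 and from 186.1 ± 16.6 to 101.2 ± 8.34 CPM in SjSS, and *Tbxas1* from 211.4 ± 4.06 to 109.3 ± 1.40 and from 239.2 ± 6.25 to 116.3 ± 5.59 CPM.

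*Pla2g4a*, the phospholipase that supplies arachidonic acid, rose in all 4 responses by log2 fold changes under 1. It stood at 41.3, 38.8 and 36.4 CPM in control B6, 45.3, 43.0 and 43.8 CPM with ACs, and 75.7, 75.4 and 66.6 CPM with CpG. In SjSS it was at 41.6, 41.3 and 38.1 CPM in controls, 58.1, 63.4 and 58.7 CPM with ACs, and 53.4, 54.1 and 56.6 CPM with CpG. As for *Ptgs2* and *Ptges*, AC treated samples were higher in SjSS and CpG treated samples higher in B6, without overlap. CpG raised it by 0.90 in B6 (SE 0.06, adjusted p = 3.59e-10) and 0.44 in SjSS (SE 0.06, adjusted p = 7.77e-06), and ACs by 0.58 in SjSS (SE 0.06, adjusted p = 2.06e-07). The strain difference was 0.45 with ACs (SE 0.06, adjusted p = 8.40e-06) and -0.41 with CpG (SE 0.06, adjusted p = 0.000118). The interactions were 0.40 (SE 0.09, adjusted p = 0.00165) and -0.46 (SE 0.09, adjusted p = 0.00416). The smallest of the responses, 0.18 with ACs in B6 (SE 0.06, adjusted p = 0.0292), passed 0.05 no longer without control B6 replicate 2 (0.18, adjusted p = 0.0667) or 3 (0.14, adjusted p = 0.142), without AC treated B6 replicate 1 (0.16, adjusted p = 0.101) or 3 (0.18, adjusted p = 0.0624), or with no filter on low counts (0.17, adjusted p = 0.0521).

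On the leukotriene side *Alox5*, the enzyme that starts the branch, fell with both stimuli. Its levels were 11.6, 7.30 and 7.96 CPM in control B6, 3.50, 2.06 and 2.32 CPM with ACs, and 3.12, 2.10 and 1.98 CPM with CpG. In SjSS they were 3.81, 5.18 and 4.97 CPM in controls, 2.43, 2.88 and 2.27 CPM with ACs, and 1.35, 1.36 and 1.16 CPM with CpG. Controls were higher in B6 than in SjSS without overlap, and AC treated samples of the strains overlapped (-0.05, SE 0.23, adjusted p = 0.861). ACs gave -1.77 in B6 (SE 0.22, adjusted p = 2.59e-06) and -0.87 in SjSS (SE 0.22, adjusted p = 0.00232), and CpG gave -1.89 (SE 0.22, adjusted p = 4.08e-07) and -1.84 (SE 0.24, adjusted p = 2.31e-06). The AC interaction of *Alox5*, 0.90 (SE 0.31, adjusted p = 0.0272), missed 0.05 without control B6 replicate 1 (0.66, adjusted p = 0.0913), control SjSS replicate 1 (0.77, adjusted p = 0.0707), AC treated B6 replicate 2 (0.75, adjusted p = 0.0794) or 3 (0.82, adjusted p = 0.0652), or AC treated SjSS replicate 2 (0.79, adjusted p = 0.079). Its CpG interaction was 0.05 (SE 0.33, adjusted p = 0.956). *Alox5* was lower in CpG treated SjSS than B6 by -0.90 (SE 0.25, adjusted p = 0.0144), which missed 0.05 without CpG treated B6 replicate 1 (-0.66, adjusted p = 0.103) or SjSS replicate 3 (-0.83, adjusted p = 0.0508).

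*Alox5ap*, the gene for FLAP, was higher in SjSS in each condition, and *Ltc4s*, the gene for leukotriene C4 synthase, only under the stimuli. Neither was called in any comparison. *Alox5ap* ran from 133.6 to 152.8 CPM in control B6, 116.3 to 118.4 with ACs and 105.1 to 110.0 with CpG. SjSS samples ran from 190.4 to 210.1, 181.4 to 201.4 and 118.5 to 145.6 CPM, above B6 in each condition without overlap. The log2 strain difference was 0.46 in controls, 0.68 with ACs (SE 0.07, adjusted p = 1.79e-07) and 0.28 with CpG (SE 0.07, adjusted p = 0.00918). The last of these missed 0.05 without CpG treated B6 replicate 3 (0.24, adjusted p = 0.0512) or SjSS replicate 2 (0.18, adjusted p = 0.0725). *Alox5ap* fell with CpG by -0.44 in B6 (SE 0.07, adjusted p = 2.46e-05) and -0.63 in SjSS (SE 0.07, adjusted p = 3.71e-07), and with ACs by -0.30 in B6 (SE 0.07, adjusted p = 0.00191), while in SjSS the AC difference was -0.08 (SE 0.07, adjusted p = 0.321). Its AC interaction, 0.22 (SE 0.10, adjusted p = 0.0905), passed 0.05 under the replicate block (0.22, adjusted p = 0.0474), without control B6 replicate 2 (0.27, adjusted p = 0.0422) and without CpG treated SjSS replicate 2 (0.22, adjusted p = 0.0444). The CpG interaction of *Alox5ap* was -0.19 (SE 0.10, adjusted p = 0.307).

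*Ltc4s* was at 1.84, 2.09 and 1.92 CPM in control B6, 1.29, 1.46 and 0.891 CPM with ACs, and 0.847, 1.01 and 0.761 CPM with CpG. In SjSS it was at 2.23, 2.22 and 2.47 CPM in controls, 2.69, 2.40 and 2.51 CPM with ACs, and 1.75, 1.78 and 1.64 CPM with CpG. All stimulated SjSS samples lay above all stimulated B6 samples. The strain difference was 1.05 with ACs (SE 0.18, adjusted p = 6.19e-05) and 0.99 with CpG (SE 0.19, adjusted p = 0.000941), against 0.25 in controls (SE 0.17, adjusted p = 0.337). In B6 *Ltc4s* fell with ACs by -0.67 (SE 0.18, adjusted p = 0.00478) and with CpG by -1.16 (SE 0.18, adjusted p = 2.11e-05). In SjSS the AC difference was 0.13 (SE 0.17, adjusted p = 0.525) and the AC interaction 0.81 (SE 0.24, adjusted p = 0.0133), while the CpG interaction was 0.74 (SE 0.25, adjusted p = 0.0929). The CpG difference of SjSS, -0.42 (SE 0.17, adjusted p = 0.0475), missed 0.05 in 17 of the 24 alternative fits, with an adjusted p of up to 0.139 without control SjSS replicate 3 and of 0.068 by DESeq2.

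The receptors for prostaglandin E2 moved apart under CpG. *Ptger2*, which encodes EP2, was at 14.5, 17.8 and 18.4 CPM in control B6, 24.1, 26.2 and 26.1 CPM with ACs, and 4.76, 6.52 and 7.61 CPM with CpG. In SjSS it was at 27.2, 27.5 and 23.2 CPM in controls, 18.3, 18.4 and 18.4 CPM with ACs, and 12.7, 14.0 and 11.1 CPM with CpG. AC treated samples lay above the controls in B6 and below them in SjSS, without overlap in either. The AC response was 0.59 in B6 (SE 0.12, adjusted p = 0.000714) and -0.50 in SjSS (SE 0.12, adjusted p = 0.00185), and the interaction was -1.09 (SE 0.17, adjusted p = 6.05e-05). CpG lowered *Ptger2* by -1.43 in B6 (SE 0.13, adjusted p = 2.19e-08) and -1.04 in SjSS (SE 0.13, adjusted p = 9.52e-07), and the responses differed by 0.39 (SE 0.18, adjusted p = 0.243). *Ptger2* was lower in SjSS than in B6 with ACs (-0.47, SE 0.12, adjusted p = 0.00373) and higher with CpG (1.01, SE 0.13, adjusted p = 2.98e-05).

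*Ptger4*, which encodes EP4, was at 32.4, 31.6 and 30.6 CPM in control B6, 22.9, 27.9 and 26.7 CPM with ACs, and 57.1, 60.8 and 59.6 CPM with CpG. In SjSS it was at 22.1, 23.2 and 21.3 CPM in controls, 13.6, 13.4 and 13.7 CPM with ACs, and 58.3, 64.8 and 66.3 CPM with CpG. In both strains all CpG treated samples lay above and all AC treated samples below the controls. CpG raised it by 0.91 in B6 (SE 0.07, adjusted p = 8.52e-10) and by 1.51 in SjSS (SE 0.07, adjusted p = 1.20e-12), and ACs lowered it by -0.29 (SE 0.07, adjusted p = 0.00217) and -0.71 (SE 0.07, adjusted p = 6.81e-08). Both responses were larger in size in SjSS, with interactions of 0.60 for CpG (SE 0.10, adjusted p = 0.000906) and -0.42 for ACs (SE 0.10, adjusted p = 0.00233). Between the strains *Ptger4* differed by -0.93 with ACs (SE 0.07, adjusted p = 2.59e-09) and 0.09 with CpG (SE 0.07, adjusted p = 0.355), where samples overlapped. *Ttc33*, whose span overlaps that of *Ptger4*, may share reads with it.

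**Figure D4:**
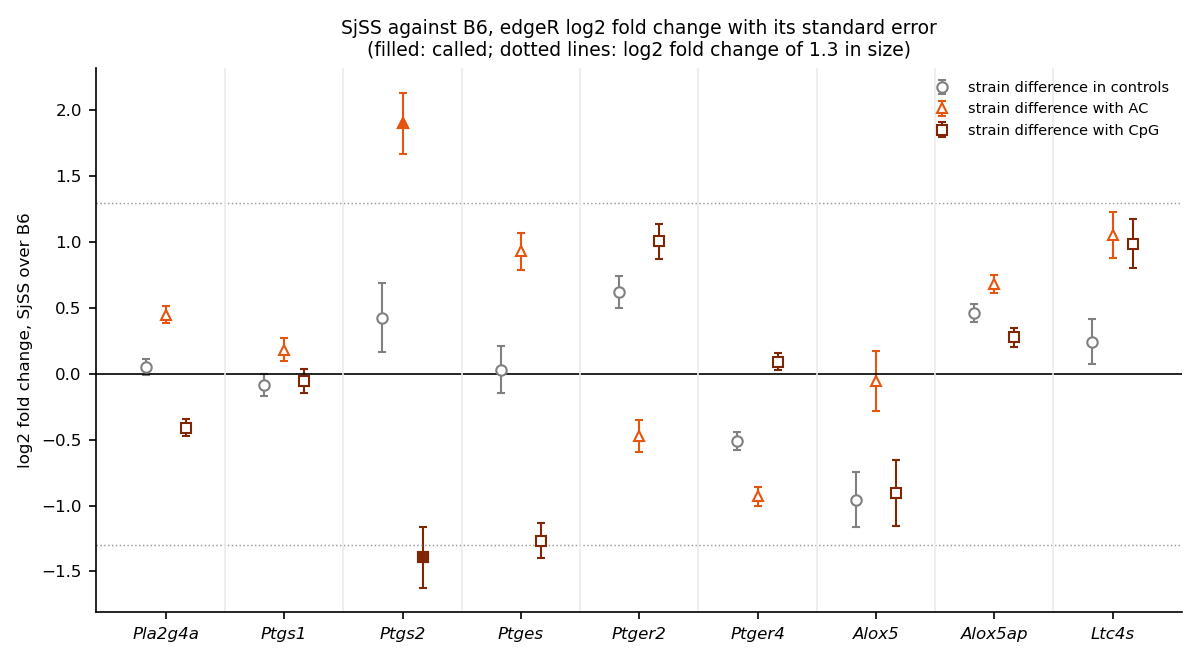
Log2 fold changes of SjSS over B6 BMDMs with their SE (edgeR, n = 3 samples a group), circles for controls, triangles for ACs and squares for CpG, filled where both thresholds were passed. For *Ptgs2*, *Ptges* and *Pla2g4a* the AC value lies above 0 and the CpG value below it, and for *Ptger2* the order is the reverse.

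Counted over the 9 genes, the strain difference with ACs gave 1 call, *Ptgs2*, against 8.93% of all genes, and the strain difference with CpG gave 1 call, again *Ptgs2*, against 2.61%. By the adjusted p alone 7 of 9 genes differed with ACs (49.4% of all genes) and 7 of 9 with CpG (19.7%). With CpG there was no call without CpG treated B6 replicate 1 and a further call, of *Ptges*, without replicate 3 of CpG treated B6 or of CpG treated SjSS. *Ptges* was otherwise at -1.27 with CpG (SE 0.14, adjusted p = 2.57e-06) and at 0.93 with ACs (SE 0.14, adjusted p = 1.84e-05). The AC interaction called *Ptgs2* alone, against 7.53% of all genes, and the CpG interaction called *Ptgs2* alone, against 0.614%. At an adjusted p under 0.05, 7 and 4 of the 9 genes differed in these interactions, against 37.9% and 5.85% of all genes. The CpG interaction of *Ptges* was called as well by DESeq2 (-1.32) and without control B6 replicate 3, control SjSS replicate 1 or 2, or replicate 3 of CpG treated B6 or SjSS.

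ACs and CpG were compared directly within each strain, although their times in the well may have differed. In B6, 2 of 9 genes were called, against 7.11% of all genes. *Ptges* was lower with ACs than with CpG by -2.92 (SE 0.14, adjusted p = 9.97e-12) and *Ptger2* higher by 2.02 (SE 0.13, adjusted p = 3.69e-10). In SjSS 2 of 9 were called, against 9.18%, with *Ptgs2* higher with ACs by 2.11 (SE 0.23, adjusted p = 3.81e-07) and *Ptger4* lower by -2.22 (SE 0.07, adjusted p = 2.95e-14). *Ptgs2* was lower with ACs in B6 by -1.19 (SE 0.23, adjusted p = 0.00028), which passed the fold threshold without replicate 3 of AC treated B6 (-1.35) or of CpG treated B6 (-1.38). *Ptges* in SjSS was at -0.72 (SE 0.14, adjusted p = 0.000185). By the adjusted p alone 7 of 9 genes differed in B6 (46.1% of all genes) and 8 of 9 in SjSS (52.2%). *Ptgs1* was higher with ACs than with CpG in both strains, by 0.89 (SE 0.09, adjusted p = 1.28e-07) and 1.12 (SE 0.09, adjusted p = 4.12e-09). *Pla2g4a* was lower with ACs in B6 (-0.72, SE 0.06, adjusted p = 1.84e-08) and stood at 0.14 in SjSS (SE 0.06, adjusted p = 0.077), and *Ptger4* was lower in B6 as well (-1.19, SE 0.07, adjusted p = 5.18e-11). In SjSS *Alox5* was higher with ACs by 0.97 (SE 0.25, adjusted p = 0.00286), *Alox5ap* by 0.54 (SE 0.07, adjusted p = 2.70e-06), *Ltc4s* by 0.55 (SE 0.17, adjusted p = 0.0115) and *Ptger2* by 0.54 (SE 0.13, adjusted p = 0.00137). In B6 the values were 0.12 for *Alox5* (SE 0.23, adjusted p = 0.696) and 0.14 for *Alox5ap* (SE 0.07, adjusted p = 0.129). *Ltc4s* was higher with ACs in B6 by 0.49 (SE 0.19, adjusted p = 0.0433), which missed 0.05 in 17 of 24 alternative fits, with an adjusted p of up to 0.215 without AC treated B6 replicate 2 and of 0.0931 by DESeq2.

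Around these genes, 6 lists of 53 further names from the same pathways were counted, of which 43 were in the table and 38 were tested. Of the 38, ACs in B6 gave 0 calls of a rise and 1 of a fall, against 2.43% and 2.04% of all genes tested. ACs in SjSS gave 3 and 1, against 7.09% and 5.83%. CpG gave 5 rises and 4 falls in B6, against 5.86% and 6.88%, and 5 and 2 in SjSS, against 4.81% and 4.45%. The median log2 fold change of the 38 was -0.12 and -0.07 with ACs, and -0.31 and -0.43 with CpG, in B6 and SjSS. The gene called lower with ACs in B6 was *Hpgd*, whose enzyme breaks prostaglandins down. *Hpgd* was at 20.2, 13.9 and 11.3 CPM in control B6, 3.83, 2.59 and 3.25 CPM with ACs (-2.23, SE 0.21, adjusted p = 8.79e-08) and 1.94, 1.70 and 1.59 CPM with CpG (-3.12, SE 0.22, adjusted p = 5.39e-10). In SjSS *Hpgd* fell as well, from 8.10 ± 1.22 CPM in controls to a mean of 3.91 CPM with ACs (-1.05, SE 0.21, adjusted p = 0.000232) and 0.886 ± 0.32 CPM with CpG (-3.20, SE 0.25, adjusted p = 2.09e-09).

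Receptors of the wider family moved in both directions. At an adjusted p under 0.05, 2 of the 7 receptors tested rose and 1 fell with ACs in B6, against 20.0% and 18.3% of all genes. With ACs in SjSS 3 rose and 1 fell, against 28.6% and 29.4%. CpG gave 3 rises and 2 falls in B6, against 28.1% and 29.8%. In SjSS CpG gave 2 and 1, against 27.8% and 26.4%. Counts this small do not set the receptors apart from all genes. *Fpr2*, a receptor for lipoxin A4 and formyl peptides, went from 15.9 ± 1.44 CPM (SD, n = 3) in control B6 to 35.7 ± 1.32 with ACs and 287.5 ± 7.09 with CpG, and from 10.7 ± 1.11 in control SjSS to 80.5 ± 5.89 with ACs and 212.1 ± 9.50 with CpG. Its AC response was larger in SjSS by 1.74 (SE 0.11, adjusted p = 5.49e-10). *Ptgir*, the prostacyclin receptor, rose with CpG by 2.25 in B6 (SE 0.10, adjusted p = 5.63e-13) and 1.68 in SjSS (SE 0.10, adjusted p = 4.09e-11), from 10.9 ± 1.54 to 51.9 ± 2.22 CPM and from 14.4 ± 1.65 to 45.8 ± 3.35 CPM. *Cysltr2*, a cysteinyl leukotriene receptor, was at 5.78 to 7.31 CPM in AC treated SjSS and 1.03 to 3.15 CPM in all other samples, with an AC interaction of 1.65 (SE 0.29, adjusted p = 0.000149). With CpG *Cysltr2* fell by -0.83 in B6 (SE 0.21, adjusted p = 0.00257) and -0.55 in SjSS (SE 0.21, adjusted p = 0.0364). *Ltb4r1*, a leukotriene B4 receptor, fell with CpG in B6 by -1.78 (SE 0.69, adjusted p = 0.0342). That value rests on 15, 4 and 18 counts in control B6 and 1, 5 and 2 with CpG. In CPM these samples overlapped, at 0.0834 to 0.320 and 0.0202 to 0.133. *Cysltr1* fell with ACs in B6 by -0.97 (SE 0.11, adjusted p = 1.69e-06), and *Ptger1*, the EP1 receptor gene, with ACs in SjSS by -0.69 (SE 0.14, adjusted p = 0.000431). *Cysltr1* was lower with ACs than with CpG in B6 by -1.60 (SE 0.11, adjusted p = 1.19e-09). Among exporters, *Abcc1*, which carries leukotriene C4, and *Abcc4*, which carries prostaglandin E2, rose with CpG by 1.74 and 1.64 in B6 (SE 0.06 and 0.09, adjusted p = 9.31e-15 and 1.05e-11) and by 1.43 and 1.52 in SjSS (SE 0.06 and 0.09, adjusted p = 1.48e-13 and 4.79e-11).

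Of the other called genes, *Hpgds* fell with CpG in B6 (-1.41, SE 0.07, adjusted p = 4.66e-12) and *Cyp4f18*, which inactivates leukotriene B4, in SjSS (-1.38, SE 0.13, adjusted p = 3.42e-08). *Slco2a1*, a prostaglandin transporter, was higher in AC treated SjSS (2.65 to 3.05 CPM) than in AC treated B6 (0.908 to 1.29 CPM, log2 difference 1.32, SE 0.33, adjusted p = 0.00254). Its control samples were already apart, at 1.49 to 1.87 CPM in SjSS and 0.563 to 1.10 CPM in B6. *Alox12* and *Pla2g4c*, which were called with ACs in SjSS at 2.98 (SE 0.49, adjusted p = 3.11e-05) and 1.74 (SE 0.43, adjusted p = 0.00187), stood under 1.6 CPM in every sample, and so did the remaining called genes *Aloxe3*, *Ltb4r1*, *Pla2g2e* and *Pla2g4b*. *Alox12* had only 2, 3 and 3 counts in control SjSS and 17, 20 and 24 with ACs. *Lta4h*, the enzyme that leads from leukotriene A4 to leukotriene B4, was at 32.8 ± 0.85 CPM in control B6 and 17.5 ± 0.551 with CpG, and at 30.9 ± 0.767 and 20.5 ± 0.82 CPM in SjSS.

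Across the 18 samples, the genes whose log2 CPM followed that of *Ptgs2* most closely among 12294 genes with a mean over 1 CPM were *Malt1* (Pearson r = 0.980), *Sept11* (0.978) and *Gm10093* (0.970). The name of *Sept11* had been turned into a date in the table and was read from its position in GENCODE M21, and *Gm10093* is a processed pseudogene there, so reads may be shared with its parent gene. *Malt1* stood at a mean of 25.2 CPM in control B6, 63.6 with ACs and 108.0 with CpG, and at 23.6, 160.0 and 67.8 CPM in SjSS, and so like *Ptgs2* was highest in AC treated SjSS and next in CpG treated B6. For *Alox5* the closest genes were *Wdr41* (0.949), *Hpgd* (0.949) and *Hsd17b4* (0.944), and for *Ptger4* they were *Chsy1* (0.974), *Hcfc2* (0.969) and *Prr14* (0.969). The samples fall into 6 groups of 3 that share conditions, so these values describe the group pattern and carry no p.

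The thymocytes had been killed with dexamethasone, a glucocorticoid, so genes that glucocorticoids induce were counted as well. The list of 8 such genes summed to 327.1 to 348.5 CPM in control B6, 379.8 to 411.2 with ACs and 223.8 to 263.1 with CpG, and to 310.0 to 400.9, 423.8 to 479.9 and 269.7 to 296.0 CPM in SjSS. With ACs none of the 8 was called in B6, against 4.47% of all genes. In SjSS 1 was called lower, against 5.83% of all genes. By group means *Per1* fell furthest there for its level, from 20.8 CPM in controls to 8.16 with ACs. The median of the 8 log2 fold changes was 0.08 in B6 and -0.49 in SjSS, so that in SjSS the sum was higher than in controls while the median was below 0. *Sgk1* alone was at a mean of 163.0 CPM in control SjSS and 272.2 CPM with ACs. *Tsc22d3*, a defining gene of the list, was at 50.2 CPM in control B6 and 60.3 with ACs, and at 65.4 and 27.6 CPM in SjSS. The part of carried-over dexamethasone in the results was not tested.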

How the data were processed

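RNA of 18 BMDM samples was sequenced as paired-end reads by the authors, with STAR as aligner, mm10 as genome and the E/M tool of Partek for quantification. The authors deposited estimated counts per gene without normalization. As 41.1% were not whole (tolerance 1e-06), counts were rounded first. The submitters' processing notes also name DESeq2 version 3.13. The lowest gene total was 10. The counter's use of strand was not given in the sources used here.

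Samples were grouped by their labels. Counts were analysed with edgeR 4.0.16 (limma 3.58.1, R 4.3.3). filterByExpr left 15789 genes, and after TMM scaling all 18 samples entered 1 quasi-likelihood fit with 6 group means. The 11 comparisons were each adjusted by the Benjamini-Hochberg method over all genes tested. Calls needed both thresholds, 0.05 for the adjusted p and 1.3 for the size of the log2 fold change. The SE was the size of the log2 fold change divided by the square root of F. Lengths, positions and overlaps came from GENCODE M21, and promoters from RefSeq (GRCm38.p6), which matched 8 of the 9 genes, without *Alox5ap*. For likeness, 2 was the prior count of the log2 CPM. Python 3.11.15 was used for tables (pandas 2.3.3, numpy 2.4.6) and for plots (matplotlib 3.10.9). The pipeline was tested on simulated counts. The alternatives were DESeq2 1.42.0, its size factors in edgeR, no filter, a filter of 10 counts in 3 samples, other fold thresholds, fits of the compared groups, the replicate number as a block, and each sample left out in turn.

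The 9 genes, the 6 pathway lists (53 names, *Prxl2b* and *Fam213b* being the same gene) and the marker lists were chosen with earlier results of these data known. All 9 genes are named in each comparison, the other pathway genes where called, at most 4 for each comparison, and the 3 closest genes for *Ptgs2*, *Alox5* and *Ptger4*. Named outside this rule, after their values were seen, were *Abcc1*, *Abcc4*, *Hpgds*, *Cyp4f18* and *Ltb4r1* (called, but beyond the 4 of their comparison, as was *Slco2a1* between AC treated strains), *Lta4h*, *Tbxas1*, *Ptger1*, and *Hdc*, *Cd4*, *Sgk1* and *Tsc22d3* among the markers. *Ptges2*, *Ptges3*, *Fam213b*, *Col1a1*, *Col3a1*, *S100a8*, *Rag1* and *Per1* were also named outside this rule, after their values were seen. Replicate numbers came from the labels. Deviations of same-numbered samples from their group means correlated at 0.26, 0.264 and 0.137 between control and CpG treated B6, all over 0.1. This is a hint that these samples are paired, which the sources do not state, and the main fit used no pairing. Elsewhere not all 3 were over 0.1. Replicates of a group differed beyond counting error in every pair (chi-square per gene of 8.15 to 33.8), so none was counted as a repeat.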

Additional observations from a re-analysis of the deposited data

Results flagged for a closer look

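Strain by stimulus interactions that passed an adjusted p of 0.05 (edgeR's quasi-likelihood test, adjusted over all 15789 genes) were set apart as differences between the strains' responses. For ACs, on the log2 scale and SjSS over B6, they were 1.475 for *Ptgs2*, 0.8991 for *Ptges*, 0.3959 for *Pla2g4a*, 0.9003 for *Alox5*, 0.807 for *Ltc4s*, -1.092 for *Ptger2* and -0.4202 for *Ptger4*. For CpG they were -1.82 for *Ptgs2*, -1.297 for *Ptges*, -0.4603 for *Pla2g4a* and 0.6045 for *Ptger4*. *Ptgs2*, *Ptges* and *Pla2g4a* are in both lists with opposite signs, and so is *Ptger4*. The pairs of interactions share the control samples of each strain.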

How the results depend on the processing

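No comparison's count of called genes changed with no filter on low counts, with a filter of 10 counts in 3 samples or in fits of the compared groups alone. DESeq2's test and DESeq2's size factors in edgeR gave 2 calls in the CpG interaction in place of 1 and changed no other count. With the replicate number as a block all 11 counts were as reported (4, 2, 5 and 5 for ACs in B6, ACs in SjSS, CpG in B6 and CpG in SjSS), and no adjusted p under 0.05 was lost. The number was taken within each strain, except in the strain differences, where samples of both strains shared a number. Between strains, samples correlated best with their own number in 0, 1 and 0 of 3 cases (controls, ACs and CpG). The block therefore has no basis for the strain differences. The block brought the AC interactions of *Ptgs1* (0.26) and *Alox5ap* (0.22) under an adjusted p of 0.05. Samples correlated best with their own number in 3 of 3 cases for every pair of conditions in SjSS and for CpG treated B6 with control and with AC treated B6, and in 1 of 3 for control and AC treated B6, a hint from the data, not the design.

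The counts depended on the fold threshold, which the study's methods set at a log2 value of 1.3. The legend of its volcano plots gives a fold change of 1.3 instead. A log2 threshold of 2 left 2 genes for ACs in B6, 3 for CpG in B6, 2 for CpG in SjSS and 0 for the strain differences with ACs and with CpG and for both interactions. A 1.3-fold threshold gave 6 genes for ACs in B6, 7 for ACs in SjSS, 9 and 9 for CpG in B6 and SjSS, 4 for controls, 7 and 6 for the strain differences with ACs and CpG, 7 and 4 for the interactions, and 7 and 8 for ACs against CpG in B6 and SjSS. Shares of all genes were not counted at the log2 threshold of 2 or at 1.3-fold. These counts therefore cannot be set against all genes. With no fold threshold the counts were 9, 7, 9, 9, 4, 7, 7, 7, 4, 7 and 8, and the shares of all genes are given with each comparison above.

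Leaving out each sample in turn gave 4 to 5 calls for CpG in B6, 0 to 2 for the strain difference with CpG, 0 to 1 for the AC interaction, 1 to 2 for the CpG interaction and 2 to 3 for ACs against CpG in B6, and the same counts as before elsewhere. Of the values of single genes under these, 40 lost an adjusted p under 0.05, 4 gained it and 17 changed sign. The sign changes were all in values that missed 0.05, with ranges of -0.146 to 0.0205 (*Ptgs1*, controls), -0.0588 to 0.162 (*Ptges*, controls), -0.0757 to 0.129 (*Ptgs1*, CpG interaction), -0.185 to 0.296 (*Alox5*, CpG interaction), -0.143 to 0.0453 (*Ptgs1*, strains with CpG), -0.142 to 0.367 (*Alox5*, ACs against CpG in B6) and -0.205 to 0.210 (*Alox5*, strains with ACs). The cause was not tested. In fits of the compared groups alone *Ptgs1* also differed between AC treated strains (0.19, adjusted p = 0.00844) and *Alox5ap* between ACs and CpG in B6 (0.14, adjusted p = 0.0355). Whether depth limits *Ltc4s*, at 0.761 to 2.69 CPM, was not tested.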
